A study of Homo sapiens with 20 samples.

Results

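The genes described here are 53 named genes of the lysosome and of the signalling complexes on its surface: subunits of the vacuolar proton pump (V-ATPase), lysosomal membrane proteins and enzymes, the MiT/TFE transcription factors, the Rag GTPases with Ragulator and the folliculin complex, mTORC1, and the autophagy receptor SQSTM1 with its partners. They were taken by name, and all 53 were found among 60616 gene identifiers counted in RNA and among 20401 protein-coding identifiers counted in ribosome footprints. The measurements compare K562 cells in which exon 5 of NAT10 was removed with CRISPR-Cas9 (KO) against the parental K562 cells (WT). K562 is an established human leukaemia line with erythroid features, and NAT10 is the enzyme that places N4-acetylcytidine (ac4C) on RNA. RNA-seq and ribosome profiling (Ribo-seq, which counts the stretches of RNA covered by ribosomes in cycloheximide-treated cells) had 2 libraries per genotype, and precipitation of RNA with an ac4C antibody or with IgG (acRIP-seq) gave peak lists pooled over the libraries of each genotype. The labels give both genotypes the same growth medium and no drug other than that cycloheximide, they do not say whether the KO cells were derived from a single clone, and no rescue with NAT10 is among the groups.

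Lysosomes are acidic compartments in which cathepsins, glycosidases and lipases break down material delivered by endocytosis and autophagy. The V-ATPase acidifies them: its cytosolic V1 sector hydrolyses ATP and its membrane V0 sector carries the protons across. Lysosomal enzymes and membrane proteins are made at the endoplasmic reticulum (ER) and sorted through the Golgi apparatus, whereas V1, Rag GTPases, Ragulator and mTORC1 are assembled from proteins made in the cytosol. When amino acids are present, Ragulator and the Rag GTPases hold mTORC1 at the lysosomal surface, where it promotes growth and keeps TFEB, TFE3 and MITF out of the nucleus. When these factors enter the nucleus they bind E-box motifs in the promoters of many lysosomal genes.

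The KO RNA libraries held 18093324 and 18778485 counts and the WT RNA libraries 10388717 and 12725302, against 1173526 and 621287 footprint counts in KO and 1220308 and 911336 in WT. The KO RNA libraries differed from each other by little more than counting noise (chi-square per degree of freedom 1.03, against 12.5 for the WT pair), so they were summed and counted as 1 sample in every test. The labels do not say that replicates came from separate cultures, so the p-values rest on library-to-library spread that may be technical only. NAT10 itself had 49.9 and 49.3 CPM (counts scaled to a library total of 1000000) in KO RNA, against 139 and 144 in WT, with a log2 fold change of -1.51 (SE 0.09, adjusted p = 0.000102, edgeR); these counts take in the exons that were not removed. All 8 erythroid leukaemia markers were above 1 CPM, at summed levels of 1430 to 1448 CPM in KO and 1208 to 1225 CPM in WT; HBZ was higher in KO (242 and 244 CPM) than in WT (57.9 and 59.3 CPM), and GATA1 lower in KO (277 and 267 CPM) than in WT (362 and 368 CPM). Of 8 macrophage markers, 7 were below 1 CPM of RNA in every library (summed over all 8, 6.82 to 6.91 CPM in KO and 12.4 to 15.2 CPM in WT). Summed lymphocyte markers were 28.4 to 31.0 CPM in KO and 39.8 to 42.2 CPM in WT, and fibroblast and epithelium markers 34.0 to 37.0 CPM in KO and 43.9 to 51.8 CPM in WT. Each of these sums came mostly from 1 gene. CD3D had 26.5 and 23.6 CPM in KO and 34.7 and 32.5 CPM in WT. EPCAM had 35.2 and 31.5 CPM in KO and 49.0 and 40.6 CPM in WT. Macrophages are rich in lysosomes, and the exception among their markers, LYZ, had 6.30 and 6.02 CPM of RNA in KO and 14.0 and 11.8 CPM in WT. Footprints of LYZ were 10.2 and 1.61 CPM in KO and 24.6 and 27.4 CPM in WT, and those of CD68, a lysosomal protein and macrophage marker, 5.96 and 1.61 CPM in KO and 13.9 and 20.8 CPM in WT (log2 fold change -1.96, adjusted p = 0.0644, edgeR). The other 6 macrophage markers had 0 footprints in every library, and the part of these markers in the results was not tested. In bulk RNA, fewer cells of a type and less RNA per cell cannot be told apart.

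Genes called lower in KO belonged mostly to the lysosomal lumen, the V0 sector of the proton pump and its accessory proteins. The 4 called higher, all in RNA alone and a share near that of all genes, were ATP6V1B2, ATP6V1G1, MLST8 and MAP1LC3B. In RNA, 14 of the 53 genes were lower in KO and 4 were higher at an adjusted p under 0.05 (edgeR's quasi-likelihood test with Benjamini-Hochberg adjustment over all 16277 genes tested), against 8.79% lower and 5.17% higher of all genes. In footprints, 12 of 50 tested genes were lower and 0 were higher, against 3.87% and 1.47% of all 8887 genes; at an unadjusted p under 0.05 there were 19 lower and 2 higher, and DESeq2 called 0 higher. The median log2 fold change of the listed genes was -0.14 in RNA and -0.33 in footprints, against -0.00 and 0.00 over all genes tested. DESeq2 made 11 of the 18 RNA calls, without ATP6V0B, ATP6AP2, LAMP1, HEXA, ATP6V1B2, ATP6V1G1 and MLST8, and 4 of the 12 footprint calls (ATP6V0A1, ATP6AP1, PSAP and SQSTM1). Leaving out WT replicate 1 or 2 left 7 or 4 footprint calls. CTSD, TFEB and RRAGD had too few footprints for the footprint test. Of the called genes, 8 were lower in both assays: ATP6V0A1, ATP6V0B, ATP6AP1, ATP6AP2, CTSB, GUSB, PSAP and SQSTM1.

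**Figure D1:**
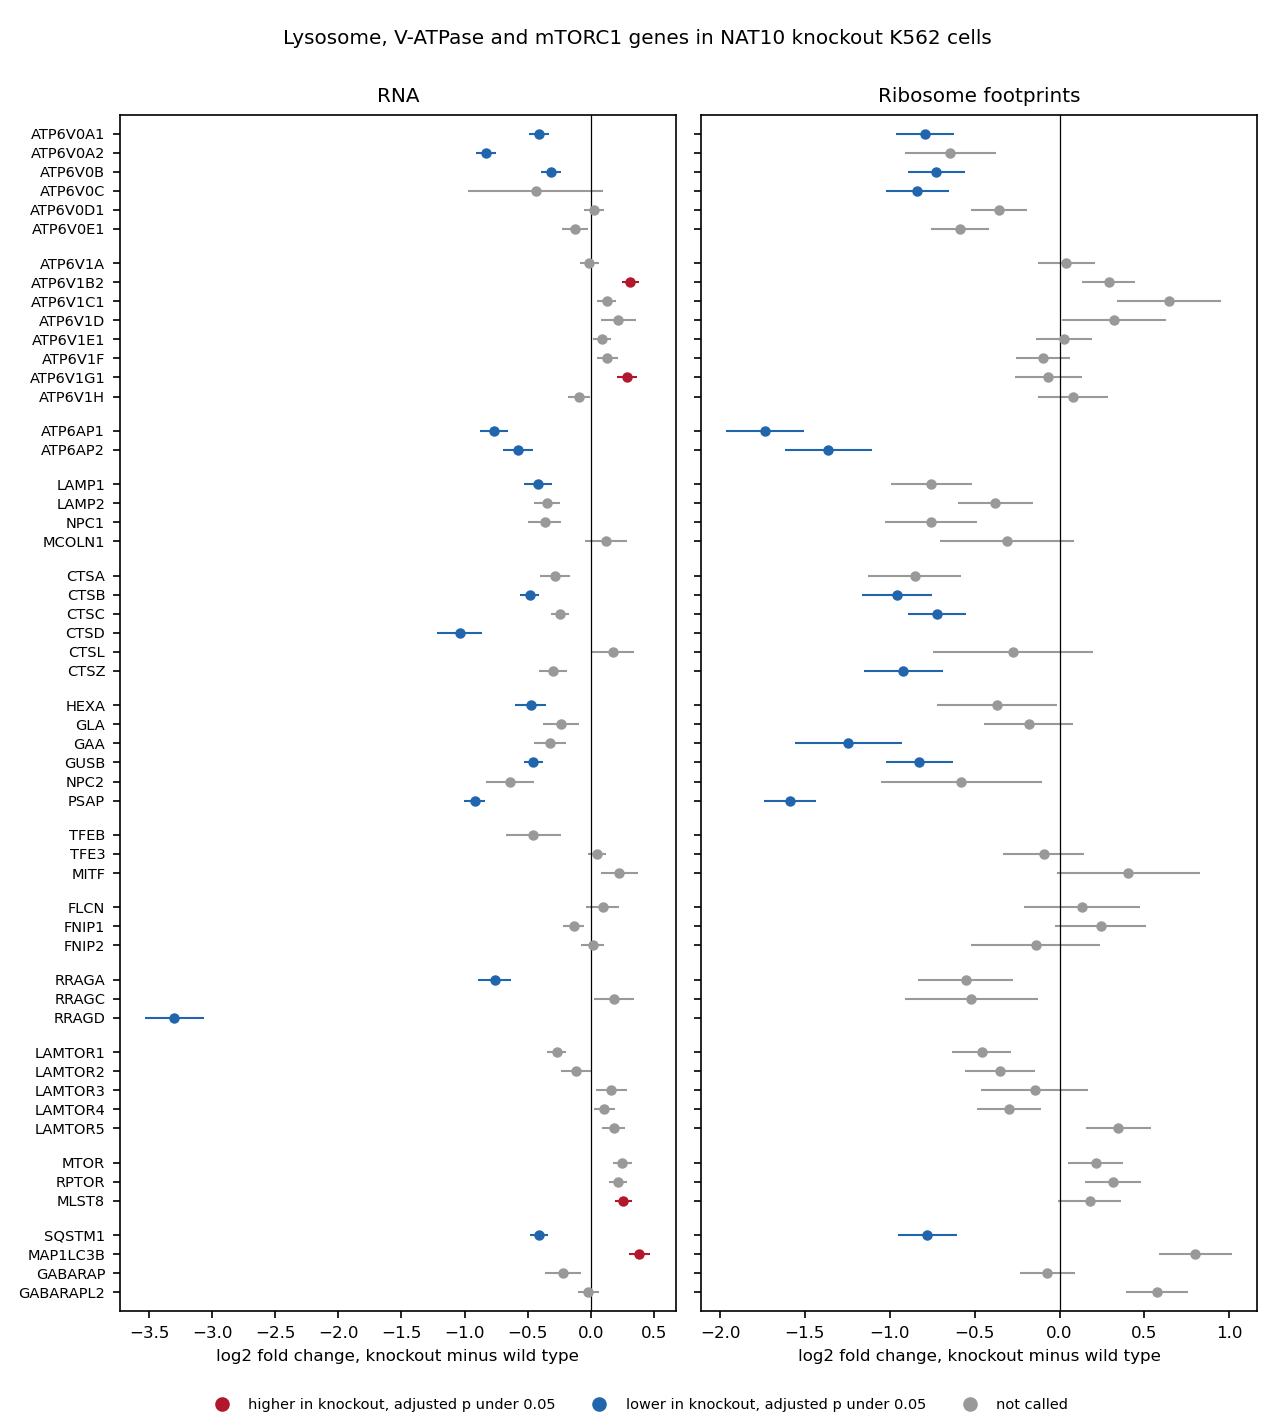
Log2 fold change (KO minus WT) of each listed gene in RNA and in footprints, with the standard error derived from the test statistic as bars. Colour marks genes past an adjusted p of 0.05. Lysosomal enzymes and V0 genes lie mostly left of 0, the V1 genes and mTORC1 lie near 0 or to its right, and RRAGD at -3.30 lies farthest from 0 in RNA.

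Several genes of the membrane sector of the proton pump were lower in KO. Of the 6 V0 genes, 3 fell in RNA and 3 fell in footprints, and both accessory genes fell in both assays; over the 8 genes together the median log2 fold change was -0.42 in RNA and -0.76 in footprints. ATP6AP1, which helps assemble V0 in the ER, had the lowest footprint fold change of the 50 tested genes. Its RNA was 24.6 and 26.2 CPM in KO and 42.8 and 43.8 CPM in WT (log2 fold change -0.77, SE 0.11, adjusted p = 0.0042, edgeR). Its footprints were 32.4 and 33.8 CPM in KO and 117 and 96.6 CPM in WT (-1.73, SE 0.23, adjusted p = 0.00173). The KO libraries lay below both WT libraries in each assay. ATP6AP2, known also as the prorenin receptor and likewise an assembly factor, moved the same way. It had 20.5 and 21.6 CPM of RNA in KO and 32.9 and 30.1 CPM in WT (-0.58, SE 0.12, adjusted p = 0.0182), and 23.0 and 25.8 CPM of footprints in KO and 64.7 and 56.0 CPM in WT (-1.36, SE 0.26, adjusted p = 0.0101). Without WT replicate 1 the footprint fold change of ATP6AP2 was -1.25 and no longer passed.

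Within V0 itself, the large a subunits carry the path by which protons cross the membrane. ATP6V0A1 had 183 and 179 CPM of RNA in KO and 248 and 234 CPM in WT (-0.41, SE 0.08, adjusted p = 0.0129, edgeR), and 170 and 138 CPM of footprints in KO and 245 and 286 CPM in WT (-0.79, SE 0.17, adjusted p = 0.0196). ATP6V0A2, the a subunit found mainly on Golgi and endosomes, had 43.8 and 43.9 CPM of RNA in KO and 79.0 and 77.2 CPM in WT (-0.83, SE 0.08, adjusted p = 0.000858). In footprints ATP6V0A2 had 34.9 and 33.8 CPM in KO and 62.3 and 41.7 CPM in WT, with a fold change of -0.64 that did not pass (adjusted p = 0.19). The proteolipid ring that turns within the membrane is built from ATP6V0B and ATP6V0C. ATP6V0B had 58.4 and 57.7 CPM of RNA in KO and 72.5 and 71.9 CPM in WT (-0.31, SE 0.08, adjusted p = 0.0367), and 147 and 129 CPM of footprints in KO and 207 and 245 CPM in WT (-0.73, SE 0.17, adjusted p = 0.028). ATP6V0C footprints were 133 and 109 CPM in KO and 187 and 245 CPM in WT (-0.84, SE 0.19, adjusted p = 0.0238), whereas its RNA had only 22 and 16 counts in KO and 19 and 13 in WT and was not called. ATP6V0D1, which couples the ring to V1, and ATP6V0E1 did not pass in either assay. The footprint calls of ATP6V0A1, ATP6V0B and ATP6V0C were lost without WT replicate 2, at -0.68, -0.61 and -0.64, and the RNA call of ATP6V0B was lost without KO replicate 2, at -0.31.

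No gene of the cytosolic V1 sector was called lower in KO, a count near the shares of all genes (8.79% in RNA and 3.87% in footprints). Of 8 V1 genes, 2 rose in RNA and none fell, with a median log2 fold change of 0.13, where 5.17% of all genes rose. In footprints 0 of 8 were called in either direction, with 0 at an unadjusted p under 0.05, 0 by DESeq2 and a median of 0.06. There 1.47% of all genes were called higher. Without WT replicate 1 the V1 median in RNA was 0.07, and with a library left out the footprint median ran from -0.00 (without KO replicate 1) to 0.13 (without KO replicate 2), with 0.09 and 0.12 without WT replicate 1 and 2. ATP6V1B2, a nucleotide-binding B subunit, had 156 and 153 CPM of RNA in KO and 125 and 124 CPM in WT (0.31, SE 0.07, adjusted p = 0.0245, edgeR). ATP6V1G1, part of the stalk that braces V1 against V0, had 119 and 118 CPM in KO and 104 and 90.8 CPM in WT (0.29, SE 0.08, adjusted p = 0.0486). ATP6V1G1 did not pass without KO replicate 1 or without KO replicate 2, at 0.28 and 0.29, nor when libraries were scaled by size factors or by total counts, and neither V1 gene passed in DESeq2. The other 6 genes, among them the catalytic subunit ATP6V1A (104 and 104 CPM in KO, 110 and 101 CPM in WT) and the regulatory subunit ATP6V1H, had RNA fold changes of -0.09 to 0.22. The sign of the V0 and V1 medians in RNA and footprints was the same under each of the 3 scalings tried with all libraries, and the difference between the sectors was not tested.

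Genes of soluble lysosomal proteins were called in the lower direction only. Of 12 proteases, glycosidases and lipid carriers, 5 fell in RNA and none rose, and of the 11 with enough footprints 6 fell and none rose. Their median log2 fold change was -0.39 in RNA and -0.83 in footprints. PSAP, the precursor of the saposins that present lipids to lysosomal hydrolases, fell in both assays. Its RNA was 139 and 137 CPM in KO and 271 and 253 CPM in WT (-0.92, SE 0.08, adjusted p = 0.000591, edgeR), and its footprints were 226 and 185 CPM in KO and 583 and 636 CPM in WT (-1.59, SE 0.15, adjusted p = 0.00032). The KO libraries lay far below both WT libraries in each assay, and both calls held when any library that could be left out was removed and in DESeq2.

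Among the cathepsins, CTSB, a cysteine protease, fell in both assays. CTSB had 62.3 and 64.0 CPM of RNA in KO and 88.9 and 88.2 CPM in WT (-0.48, SE 0.08, adjusted p = 0.00577, edgeR), and 52.8 and 51.5 CPM of footprints in KO and 104 and 94.4 CPM in WT (-0.96, SE 0.21, adjusted p = 0.0195). CTSD, the main aspartic protease of lysosomes, had 8.73 and 7.99 CPM of RNA in KO and 19.1 and 15.5 CPM in WT (-1.04, SE 0.18, adjusted p = 0.00827). CTSD lies on chromosome 11 between NAT10 and the tip of the short arm, where 214 tested genes had a median RNA fold change of -0.57 and 113 were called lower, against a median of -0.03 over 619 other genes of that chromosome. The part of that segment in the CTSD result was not tested. With 0 and 1 footprint counts in KO and 2 and 2 in WT, CTSD was too low for a footprint test. CTSC, which activates serine proteases of granules, had 156 and 122 CPM of footprints in KO and 217 and 239 CPM in WT (-0.72, SE 0.17, adjusted p = 0.0316), and CTSZ, a carboxypeptidase, had 38.3 and 35.4 CPM in KO and 63.9 and 74.6 CPM in WT (-0.92, SE 0.23, adjusted p = 0.0403). Neither passed in RNA, where CTSC had 91.0 and 87.0 CPM in KO and 105 and 106 CPM in WT and CTSZ had 39.2 and 35.5 CPM in KO and 49.9 and 42.4 CPM in WT. CTSA, the protective protein of the sialidase complex, and CTSL passed in neither assay. The footprint call of CTSB was lost without WT replicate 1, at -0.88; CTSC was lost without KO replicate 2 or either WT library, at -0.79 to -0.59, and CTSZ without KO replicate 1 or either WT library, at -1.04 to -0.82.

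Of the glycosidases, GUSB (beta-glucuronidase) fell in both assays. GUSB had 69.1 and 67.4 CPM of RNA in KO and 94.1 and 93.6 CPM in WT (-0.46, SE 0.08, adjusted p = 0.00706, edgeR), and 75.8 and 64.4 CPM of footprints in KO and 112 and 136 CPM in WT (-0.83, SE 0.20, adjusted p = 0.0309). HEXA, the alpha chain of hexosaminidase A, had 19.0 and 20.4 CPM of RNA in KO and 28.5 and 26.6 CPM in WT (-0.48, SE 0.12, adjusted p = 0.0413). In footprints HEXA had 15.3 and 22.5 CPM in KO and 24.6 and 20.8 CPM in WT, where the genotypes overlapped. GAA, the acid glucosidase that degrades glycogen, had 17.0 and 12.9 CPM of footprints in KO and 37.7 and 34.0 CPM in WT (-1.24, SE 0.32, adjusted p = 0.0403), against 23.3 and 21.7 CPM of RNA in KO and 27.3 and 29.0 CPM in WT (-0.32, adjusted p = 0.14). GLA, the galactosidase deficient in Fabry disease, and NPC2, which hands cholesterol to NPC1, passed in neither assay. The footprint call of GUSB was lost without WT replicate 2 (-0.69), that of GAA without either WT library (-1.32 to -1.17), and the RNA call of HEXA without KO replicate 1 (-0.43). Without the filter on low counts, HEXA and ATP6V0B did not pass in RNA.

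Lysosomal membrane proteins other than the pump had a median log2 fold change of -0.36 in RNA and -0.57 in footprints over 4 genes, the footprint median being -0.26 without KO replicate 1. LAMP1, a heavily glycosylated protein of the lysosomal membrane, had 35.2 and 36.7 CPM of RNA in KO and 46.4 and 49.6 CPM in WT (-0.42, SE 0.11, adjusted p = 0.0438, edgeR); without KO replicate 1 it did not pass, at -0.39. Its footprints were 40.1 and 30.6 CPM in KO and 60.6 and 59.3 CPM in WT (-0.75, adjusted p = 0.0928). LAMP2, needed for fusion with autophagosomes, and the cholesterol exporter NPC1 did not pass, at -0.35 and -0.36 in RNA. The calcium channel MCOLN1 did not pass in RNA, with 13.3 and 11.4 CPM in KO and 11.3 and 11.4 CPM in WT.

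**Figure D2:**
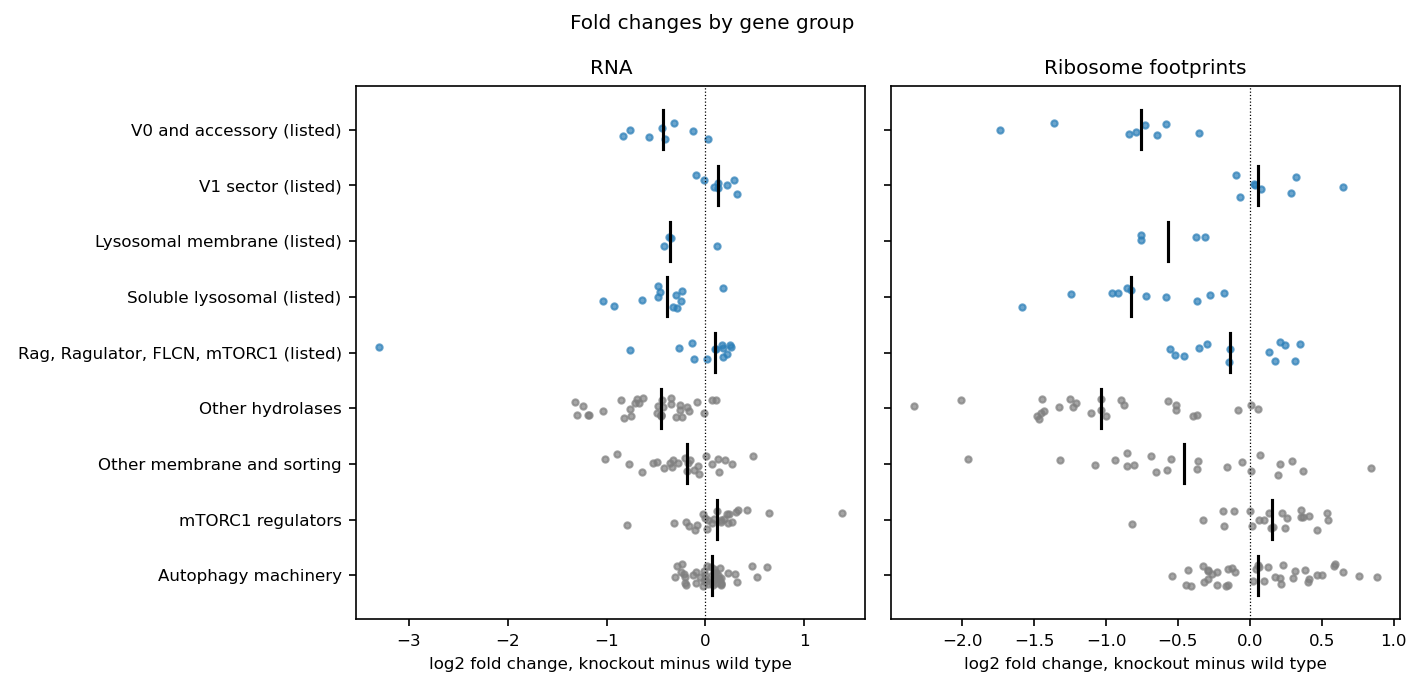
Log2 fold changes (KO minus WT) in RNA and in footprints by role, with a point per gene and a line at the median. Blue marks listed genes and grey wider pathway genes. The MiT/TFE factors, the listed autophagy genes, the other V-ATPase subunits and assembly factors, and the mTORC1 substrates and mTORC2 genes are not drawn. The medians of V0 with its accessory genes (-0.42 in RNA, -0.76 in footprints) and of the soluble lysosomal proteins (-0.39 and -0.83) lie below 0, and that of V1 (0.13 and 0.06) lies near it; without KO replicate 1 the V1 footprint median was -0.00.

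Grouped by where the protein is made, a grouping chosen after the values were seen and so given with no test, 23 of the listed genes encode proteins made at the ER and 30 encode proteins made in the cytosol. Of the ER-made group, 11 fell and 0 rose in RNA, and 11 of 22 fell and 0 rose in footprints; the medians were -0.41 and -0.76. Of the cytosol-made group, 3 fell and 4 rose in RNA, and 1 of 28 fell and 0 rose in footprints; the medians were 0.09 and 0.03 (0.05 in RNA without WT replicate 1, and -0.03 to 0.09 in footprints with a library left out). The single cytosolic gene that fell in footprints was SQSTM1.

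Lysosomal hydrolases outside the listed genes were also called lower. Outside the listed genes, 159 genes of lysosome, mTORC1 and autophagy lists were matched. For comparison, 8.79% of all genes tested were called lower and 5.17% higher in RNA, and 3.87% lower and 1.47% higher in footprints. Of 33 other lysosomal hydrolases and activators tested, 16 fell and 0 rose in RNA, with a median log2 fold change of -0.45. At an unadjusted p under 0.05, 19 were lower and 0 higher in RNA, and DESeq2 called 11 lower and 0 higher. Of 25 tested in footprints 9 fell and 0 rose, with a median of -1.04. There DESeq2 called 3 lower and 0 higher. TPP1, a tripeptidyl peptidase, had 16.8 and 17.4 CPM of RNA in KO and 43.1 and 41.1 CPM in WT, with -1.30 in RNA and -1.45 in footprints; it lies in the lower segment of chromosome 11, as does SMPD1. DNASE2, the acid nuclease, had 9.45 and 10.5 CPM in KO and 24.1 and 26.0 CPM in WT, with -1.32 in RNA and -2.34 in footprints. CTSH, an aminopeptidase, had 184 and 185 CPM in KO and 289 and 286 CPM in WT, with -0.63 in RNA and -1.33 in footprints. Neither DNASE2 nor CTSH lies in that segment. Of 25 other membrane and sorting proteins, 4 fell and 1 rose in RNA: LAPTM4B (-0.78), CD63 (-0.64), SLC17A5 (-1.01) and the mannose 6-phosphate receptor M6PR (-0.53) were lower, and LAPTM5 (0.48) was higher. Of 22 tested in footprints 3 fell, namely LAPTM4B (-1.08), CD63 (-0.86) and the chloride exchanger CLCN7 (-0.81). For these membrane and sorting proteins DESeq2 called 2 lower and 1 higher in RNA, and 1 lower in footprints. Of 11 other V-ATPase subunits and assembly factors, only DMXL2, which helps V1 join V0, passed, at 0.32 in RNA and 1.07 in footprints. DESeq2 called 0 of that group in either assay.

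The 3 MiT/TFE factors themselves did not pass in either assay. TFE3 had 89.0 and 85.4 CPM of RNA in KO and 86.2 and 82.7 CPM in WT (0.05), and MITF had 29.6 and 28.8 CPM in KO and 22.8 and 27.0 CPM in WT (0.22, adjusted p = 0.362, edgeR). TFEB had 4.64 and 5.11 CPM in KO and 6.64 and 6.76 CPM in WT (-0.45, adjusted p = 0.216). RNA levels say nothing of where in the cell the factors were.

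These factors bind E-boxes with the core CACGTG, and a longer palindrome around this core is known as the coordinated lysosomal expression and regulation (CLEAR) element. Of 41 listed genes with a promoter sequence (250 bases before to 50 bases after the start, RefSeq, GRCh38.p14), 12 held CACGTG (29.3%), against 8.77% of 27305 genes taken with no filter on expression. The listed genes were picked by lysosomal role, and the element is named for lysosomal genes. Such a share thus describes the promoters and not the comparison of KO with WT. The motif reads the same on both strands, as does the longer TCACGTGA that contains it, which was held by 6 of the 41 (14.6%), against 1.18% of all genes: ATP6V0D1, ATP6V1G1, CTSA, GAA, LAMP1 and MCOLN1. Printed here are the promoters of the 5 motif-bearing genes that passed a test (ATP6V0B, GAA, LAMP1, CTSD and ATP6V1G1) and, for contrast, of MCOLN1, which holds 2 copies and passed none; capitals mark CACGTG. They are ATP6V0B at chr1:43974710-43975009 (plus strand), GAA at chr17:80101331-80101630 (plus strand), LAMP1 at chr13:113296989-113297288 (plus strand), CTSD at chr11:1763878-1764177 (minus strand), ATP6V1G1 at chr9:114587519-114587818 (plus strand) and MCOLN1 at chr19:7522374-7522673 (plus strand).
ATP6V0B: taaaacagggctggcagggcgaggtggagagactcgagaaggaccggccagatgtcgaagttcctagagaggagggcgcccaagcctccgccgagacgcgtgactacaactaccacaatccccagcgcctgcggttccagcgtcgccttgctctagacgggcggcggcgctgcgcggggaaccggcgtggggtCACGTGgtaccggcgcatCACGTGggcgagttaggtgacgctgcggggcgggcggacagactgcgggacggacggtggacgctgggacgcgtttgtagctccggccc
GAA: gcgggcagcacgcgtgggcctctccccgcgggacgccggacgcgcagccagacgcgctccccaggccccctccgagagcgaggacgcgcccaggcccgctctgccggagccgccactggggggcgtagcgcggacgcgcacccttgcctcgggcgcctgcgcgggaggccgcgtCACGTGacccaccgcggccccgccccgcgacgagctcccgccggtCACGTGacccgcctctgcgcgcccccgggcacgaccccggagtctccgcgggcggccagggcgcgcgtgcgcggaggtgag
LAMP1: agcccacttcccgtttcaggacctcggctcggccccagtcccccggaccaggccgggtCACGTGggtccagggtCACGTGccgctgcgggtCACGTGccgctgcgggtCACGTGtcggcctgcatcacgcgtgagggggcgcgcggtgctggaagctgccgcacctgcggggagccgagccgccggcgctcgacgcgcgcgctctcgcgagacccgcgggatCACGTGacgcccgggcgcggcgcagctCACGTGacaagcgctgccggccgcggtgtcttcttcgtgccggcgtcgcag
CTSD: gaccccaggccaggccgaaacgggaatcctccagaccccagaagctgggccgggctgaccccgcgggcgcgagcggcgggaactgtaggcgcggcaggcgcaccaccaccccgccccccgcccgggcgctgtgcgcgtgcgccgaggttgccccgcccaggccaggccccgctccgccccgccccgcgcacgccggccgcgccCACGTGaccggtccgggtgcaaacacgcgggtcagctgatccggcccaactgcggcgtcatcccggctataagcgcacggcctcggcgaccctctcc
ATP6V1G1: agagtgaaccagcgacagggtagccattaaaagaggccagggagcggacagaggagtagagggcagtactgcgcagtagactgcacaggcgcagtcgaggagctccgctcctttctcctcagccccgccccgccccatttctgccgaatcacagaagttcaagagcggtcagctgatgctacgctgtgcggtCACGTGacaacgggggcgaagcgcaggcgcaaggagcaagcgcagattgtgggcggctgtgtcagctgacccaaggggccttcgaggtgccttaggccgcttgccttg
MCOLN1: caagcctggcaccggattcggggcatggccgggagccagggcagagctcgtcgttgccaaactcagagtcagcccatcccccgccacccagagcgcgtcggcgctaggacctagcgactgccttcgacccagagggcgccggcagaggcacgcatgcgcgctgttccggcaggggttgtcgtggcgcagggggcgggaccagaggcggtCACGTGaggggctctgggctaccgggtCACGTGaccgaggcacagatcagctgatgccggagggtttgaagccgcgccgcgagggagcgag

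LAMP1 held 6 copies, the first beginning 192 bases before the start and the last 1 base before it, so that the last spans the start. CTSD and ATP6V1G1 held 1 copy each. In RNA, genes with the motif were called in both directions. Of the 12 genes with CACGTG, ATP6V0B, CTSD and LAMP1 were lower in KO, ATP6V1G1 was higher and 8 were not called. Of the 29 with a promoter sequence and no CACGTG, 6 were lower, 1 was higher and 22 were not called. Over all genes, 8.79% were lower and 5.17% higher. The ATP6V1G1 call was lost without either KO library, and DESeq2 did not call ATP6V0B, LAMP1 or ATP6V1G1. CTSD lies in the lower segment of chromosome 11. In footprints 2 of the 12, ATP6V0B and GAA, and 8 of the 29 were lower, with 1 gene of each set not tested. The median RNA fold change was -0.20 with the motif and -0.11 without it. In footprints the medians were -0.46 with it and -0.16 without it, and these differences were not tested. Listed genes with no promoter sequence, such as RRAGD and PSAP, are in neither set.

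RRAGD had the farthest RNA fold change from 0 among the 53 genes. RagD pairs with RagA or RagB in the dimer that carries mTORC1 to the lysosome. RRAGD had 1.60 and 1.33 CPM of RNA in KO (29 and 25 counts) and 13.9 and 15.1 CPM in WT (144 and 192 counts), with a log2 fold change of -3.30 (SE 0.23, adjusted p = 0.000244, edgeR). Its footprints were 1 and 0 counts in KO and 10 and 5 counts in WT, a KO over WT ratio of 0.0792 after scaling by totals (95% exact interval 0.00188 to 0.515, counting error only). Both KO libraries were low and both WT libraries high in each assay. RRAGC, which encodes the alternative partner RagC, did not pass: its RNA was 13.7 and 14.1 CPM in KO and 12.8 and 11.7 CPM in WT. RRAGA had 15.1 and 16.3 CPM of RNA in KO and 27.8 and 25.6 CPM in WT (-0.76, SE 0.13, adjusted p = 0.00852), and 33.2 and 57.9 CPM of footprints in KO and 55.7 and 69.1 CPM in WT, where the genotypes overlapped. RRAGA has a close paralogue, RRAGB, and whether reads were shared between them was not tested.

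**Figure D3:**
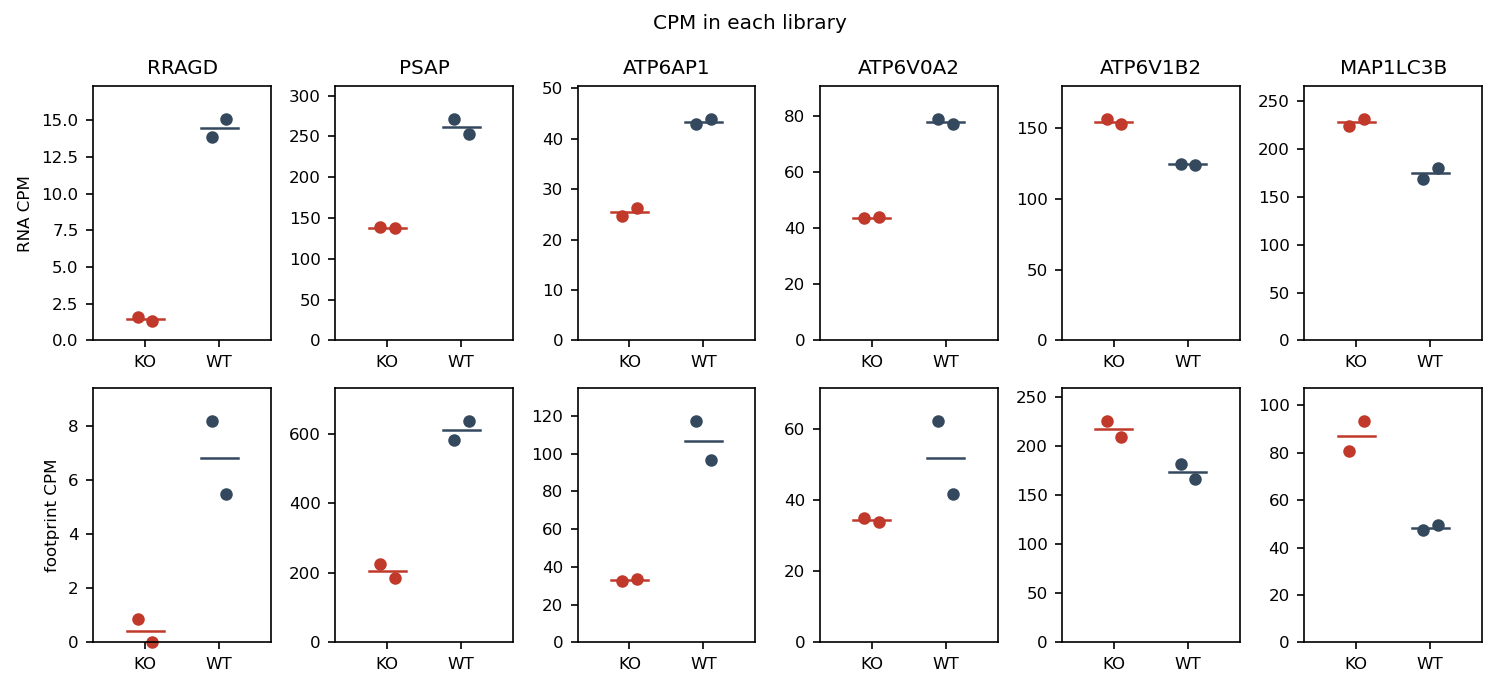
CPM in each KO and WT library of RNA (top) and footprints (bottom) for 6 genes, with a point per library, a line at the mean and a linear axis from 0 in each panel. RRAGD, PSAP, ATP6AP1 and ATP6V0A2 are lower in both KO libraries than in both WT libraries, and ATP6V1B2 and MAP1LC3B are higher.

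Of the 14 genes of the Rag, Ragulator, folliculin and mTORC1 complexes, 1 rose and 2 fell in RNA, shares near those of all genes (5.17% and 8.79%), and 0 of 13 were called in footprints (0 higher and 1 lower at an unadjusted p under 0.05, 0 by DESeq2), with median fold changes of 0.10 in RNA and -0.14 in footprints. These medians were 0.02 in RNA without WT replicate 1, and in footprints -0.05 without KO replicate 2 and 0.04 without WT replicate 2. MLST8, the small beta-propeller subunit shared by both mTOR complexes, had 149 and 146 CPM of RNA in KO and 126 and 121 CPM in WT (0.26, SE 0.07, adjusted p = 0.0438, edgeR). That call was lost without KO replicate 1 (0.24), under total-count scaling and in DESeq2. The kinase MTOR did not pass, with 206 and 215 CPM in KO and 187 and 168 CPM in WT, nor did the scaffold RPTOR, with 172 and 171 CPM in KO and 153 and 143 CPM in WT. The 5 Ragulator genes, which form the anchor of the Rag GTPases on the membrane, had RNA fold changes of -0.27 to 0.18, and FLCN, FNIP1 and FNIP2, whose complex activates RagC and RagD, had -0.14 to 0.10.

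Among 25 upstream regulators of mTORC1 tested, 4 rose and 1 fell in RNA (1 higher and 1 lower by DESeq2), against 5.17% higher and 8.79% lower of all genes. In footprints 0 of 22 were called (0 at an unadjusted p under 0.05 in either direction, 0 by DESeq2). That count is near the shares of all genes there, 1.47% higher and 3.87% lower. CASTOR2, a paralogue of the arginine sensor CASTOR1, had 66.0 and 67.6 CPM in KO and 118 and 115 CPM in WT (-0.80). SESN2, the leucine sensor induced by stress, had 414 and 425 CPM in KO and 288 and 253 CPM in WT (0.64), and SESN3 had 4.86 and 4.90 CPM in KO and 2.12 and 1.65 CPM in WT (1.38). The small GTPase RHEB, which activates mTORC1 directly, rose by 0.26, as did the GATOR2 subunit SEC13 by 0.33. Among 10 substrates and mTORC2 genes, EIF4B (-0.78) and RICTOR (-0.40) fell and MAPKAP1 (0.39) and LARP1 (0.36) rose in RNA. DESeq2 called 1 higher and 1 lower of these in RNA. In footprints 0 of 9 were called, where 2 higher and 1 lower had an unadjusted p under 0.05 and DESeq2 called 0.

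Of the 4 listed autophagy genes, 1 fell and 1 rose in RNA. SQSTM1 (p62), the receptor that delivers ubiquitinated cargo, had 115 and 111 CPM of RNA in KO and 155 and 146 CPM in WT (-0.41, SE 0.07, adjusted p = 0.00842, edgeR), and 216 and 264 CPM of footprints in KO and 348 and 454 CPM in WT (-0.78, SE 0.17, adjusted p = 0.0228). The footprint call was lost without KO replicate 1 (-0.62) or WT replicate 2 (-0.58). MAP1LC3B (LC3B), the ubiquitin-like protein that is joined to the autophagosome membrane and binds SQSTM1, had 225 and 231 CPM of RNA in KO and 169 and 180 CPM in WT (0.39, SE 0.09, adjusted p = 0.0247). Its footprints were 81.0 and 93.4 CPM in KO and 47.5 and 49.4 CPM in WT, a fold change of 0.80 (SE 0.21) with an adjusted p of 0.0504. MAP1LC3B passed in footprints under both other scalings, without the filter on low counts, without KO replicate 1 and with a replicate block. It did not pass in DESeq2, nor without KO replicate 2 or either WT library. The LC3 relatives GABARAP and GABARAPL2 did not pass; GABARAPL2 had 121 and 126 CPM of footprints in KO and 86.0 and 74.6 CPM in WT (0.57, adjusted p = 0.0939). Of 43 other autophagy genes tested, only BNIP3, a mitophagy receptor, passed in RNA (0.62), and DESeq2 called 0 there. In footprints 0 of 39 passed (2 higher and 2 lower at an unadjusted p under 0.05, 0 by DESeq2). Of all genes, 5.17% were called higher and 8.79% lower in RNA, and 1.47% higher and 3.87% lower in footprints.

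Most listed genes had a lower fold change in footprints than in RNA, but none passed the test of translational efficiency (the change in footprints relative to the change in RNA, fitted as the interaction of assay and genotype). Of 52 genes tested, 39 had a value below 0, with a median of -0.31. Over all 10299 genes, 55.9% lay below 0 and the median was -0.06. Of the 52, 0 were called higher or lower (edgeR), where 0% of all genes were called higher and 0.00971% lower. At an unadjusted p under 0.05 there were 13 lower and 1 higher, and DESeq2 called PSAP lower. ATP6AP1 (-1.05) and GAA (-0.99) had the lowest values, followed by ATP6AP2 (-0.87), RRAGC (-0.82), CTSD (-0.79) and PSAP (-0.73), none of them past the threshold. The CTSD value rests on 0 and 1 footprint counts in KO and 2 and 2 in WT (SE 1.51, against 0.19 for PSAP). CTSD and RRAGD (-0.44, SE 1.40) entered this fit through their RNA counts, because the count filter took both assays together. The V0 and accessory genes had a median of -0.47 and the soluble lysosomal proteins -0.55, while the V1 genes had -0.05, a value that turned to 0.02 under total-count scaling. ATP6AP1 and PSAP passed without the filter on low counts, and with KO libraries apart and a replicate block.

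In the ac4C precipitation, peaks were placed on the transcripts of nearly every listed gene with either antibody. With the ac4C antibody, 53 of 53 genes had a peak in KO (70.7% of RNA-tested genes did) and 47 of 53 in WT (53.2% of RNA-tested genes); with IgG, 51 had a peak in KO (68.2%) and 47 in WT (54.3%). MCOLN1, CTSA, TFEB, MITF, FNIP1 and FNIP2 had none in either WT list. Of 413 antibody peak regions on these genes in KO, 75.8% overlapped an IgG peak on the same transcript by at least 1 base, against 79.6% of all regions, and of 470 in WT 93.2% did, against 93.3% of all. Genes whose antibody regions met no IgG region were CTSD and NPC2 in KO, which had no IgG peak, and 0 in WT, where 7.37% and 2.58% of genes with an antibody peak were so placed. Peaks were called once per genotype on pooled libraries, so there is no replicate check and peak numbers were not compared between genotypes.

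Peak height, as the authors' fold enrichment over input, was similar for antibody and IgG. The ratio of a gene's highest antibody fold to its highest IgG fold had a median of 1.05 in KO (0.664 to 1.98, above 1 in 30 of 51 genes) and 0.972 in WT (0.779 to 1.23, above 1 in 21 of 47), against medians of 1.00 and 0.963 over all genes. PSAP had an antibody fold of 46.2 and an IgG fold of 36.3 in KO, and 98.6 and 107 in WT. RRAGD had 3.65 and 4.27 in KO and 3.80 and 4.06 in WT, and ATP6AP1 had 7.40 and 9.54 in KO and 4.05 and 3.50 in WT. The highest ratio, 1.98 in KO, was that of ATP6V0B, where the antibody fold was 11.6 and the IgG fold 5.84; in WT its folds were 34.9 and 33.4. Peak summits were spread along the protein-coding transcripts: 33.1%, 32.5% and 34.3% of 492 summits in KO and 30.9%, 39.8% and 29.3% of 563 in WT lay in the first, middle and last portion of equal length. Over all genes the shares were 32.4%, 34.9% and 32.6% in KO and 29.2%, 37.1% and 33.8% in WT. Regions and summits were counted on each transcript, so genes with many transcripts weigh more. In WT, CTSB held 82 of the 470 regions, on 59 transcripts.

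**Figure D4:**
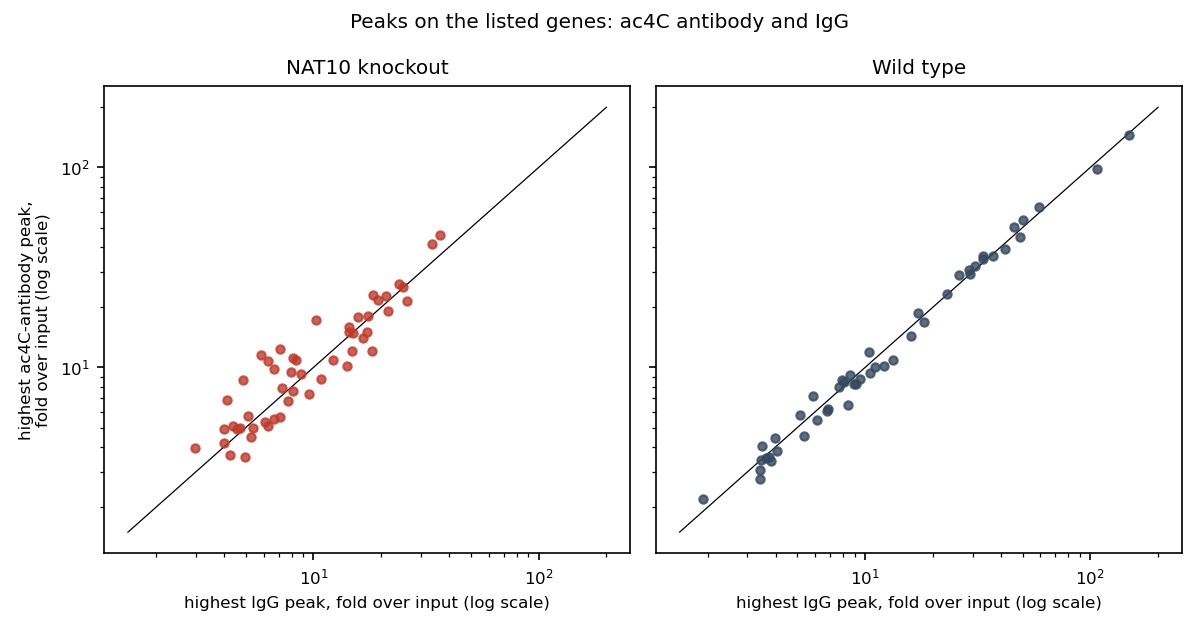
Highest fold enrichment over input per listed gene with the ac4C antibody (vertical) against IgG (horizontal), both on log axes, in KO (51 genes) and WT (47 genes), with a line of equal values. Points lie along that line in both genotypes, with ratios of 0.664 to 1.98 in KO and 0.779 to 1.23 in WT.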

How the data were processed

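The listed genes, their roles and the wider gene lists were chosen with earlier results of these data known. Gene-level read counts of both sequencing assays, whole numbers with no scaling, were deposited by the authors; duplicate reads had been removed before counting, per the file headers, which can lower short abundant transcripts most. The build GRCh38.p13 and the tools Trimmomatic, cutadapt, STAR, featureCounts, SAMtools, Bowtie2, MACS2, bedtools and ChIPseeker come from the submitters' processing notes, where their roles and versions are not stated. Whether counting used strand is not given there, so reads of a gene and of an antisense or overlapping neighbour cannot be told apart. The deposited peak lists, on transcript coordinates and from merged libraries, give the authors' fold enrichment over input, a score and −log10 p and q values.

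Tests on the counts used edgeR (version 4.0.16, under R version 4.3.3) with TMM scaling (filterByExpr, quasi-likelihood F test, Benjamini-Hochberg adjustment over all genes tested, threshold 0.05). Log2 fold changes are KO minus WT. Their standard error (SE) is the absolute fold change divided by the square root of the F statistic. CPM are counts scaled to a library total of 1000000. Both KO RNA libraries were summed to 1 sample, which left 1 residual degree of freedom in the RNA fit, with that sample assumed to vary like WT. Biological coefficients of variation were 9.12% (RNA) and 12.0% (footprints). Efficiency was fitted as an interaction over both assays, with 3 residual degrees of freedom. Values per library are given for every listed gene that passed a test, short values for the others, and for up to 3 genes of lowest adjusted p in each wider list; other called genes of those lists, and genes named beside them, were chosen after their values were seen. CPM are not divided by gene length, so levels of different genes are not compared by them. Intervals cover counting error only. Alternatives were other scalings, no filter, DESeq2 1.42.0, leaving out libraries, a replicate block and other peak thresholds. Promoter coordinates are those of RefSeq, GRCh38.p14.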

Additional observations from a re-analysis of the deposited data

How the results depend on the processing

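The number of listed genes called in RNA was 18, and 11 of these 18 were called by DESeq2; it was 28 (6 higher and 22 lower) with the KO libraries kept apart, and 28 with a replicate block as well. Leaving out a KO library gave 14 to 16, and leaving out a WT library left 1 sample against 1 with no test. In footprints the count was 12, against 4 by DESeq2, 4 to 15 when a library was left out (7 without WT replicate 1, 4 without WT replicate 2) and 21 (2 higher and 19 lower) with the replicate block. For efficiency it was 0, against 2 with no filter on low counts, 1 by DESeq2, 3 with the replicate block and KO libraries apart (PSAP and ATP6AP1 lower, GABARAPL2 higher), and 0 in each fit that left out a library. No label says what replicate numbers share, and with 2 pairs the data do not settle whether they pair the libraries: deviations of same-numbered libraries correlated at -0.01 in RNA and 0.23 in footprints. Genes whose antibody peaks met no IgG peak numbered 2 in KO, against 4 on protein-coding transcripts alone and 4 when an overlap of at least 50% of the antibody peak was asked, and 0 in WT, against 1 at a −log10 q of at least 5 and 2 at a fold of at least 4. No listed gene's fold change past the threshold changed sign under any of these. The cause of each shift was not tested. Footprint totals of 621287 to 1220308 limit genes with few footprints, such as CTSD, TFEB and RRAGD.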

Other observations

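Footprint and RNA counts stood in very different proportion for a few of the listed genes. In WT the ratio of footprint CPM to RNA CPM had a median of 1.32 over the 53 genes and 0.917 over all 10266 genes with both values, where 5% of genes lay above 3.22 and 5% below 0.171. ATP6V0C, the proteolipid of the V-ATPase ring, had a ratio of 117 in KO and 151 in WT, and GABARAP had 9.01 in KO and 7.88 in WT. CTSD had 0.0963 in KO and 0.111 in WT, the lowest of the 53. For these genes a level in one assay cannot be read as a level in the other. These genes were picked after their values were seen.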
